A study of Mus musculus with 4 samples.

Results

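Mesenchymal transcription factors are DNA-binding proteins that give fibroblasts and related cells their identity, and 10 of them are described here: the homeodomain factors Prrx1 and Prrx2, the basic helix-loop-helix factors Twist1, Twist2 and Tcf21, and the zinc-finger factors Snai1, Snai2, Zeb1, Zeb2 and Osr1. They were taken by name, as every gene probe whose name in the array design was one of these 10, which gave 16 of the 40628 gene probes and 10 of 29411 gene names. Expression was compared between transformed C3H10T1/2 cells exposed to 2 mM phorone (2 arrays) and transformed C3H10T1/2 cells whose titles name no phorone (2 arrays). The latter are called control here. C3H10T1/2 is a mouse embryo fibroblast line, and phorone, an unsaturated ketone, lowers cellular glutathione by reacting with it. Cells of both groups had been transformed in culture: they had received 2.5 µg/ml of 3MC (3-methylcholanthrene, a carcinogen) for 2 days, then, after 4 days in plain medium, 100 ng/ml of the tumour promoter TPA over 2 weeks, and a further 4 weeks without it. Whether replicates were grown as separate cultures is not in the labels, so the replicate spread behind the p-values may be technical, and the length of the phorone exposure is not given in the sources used here.

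In embryos these factors mark and pattern mesenchyme, the loose tissue from which fibroblasts, bone, cartilage and muscle coats arise. Snai1, Snai2, Zeb1 and Zeb2 bind E-box sequences and repress epithelial genes such as Cdh1 (E-cadherin), which lets cells leave an epithelium; Twist1 and Twist2 act in the same programme as dimers with the widely expressed E proteins. Prrx1 and Prrx2 drive limb and craniofacial mesenchyme, Osr1 marks mesenchyme of the kidney, limb and gut wall, and Tcf21 marks fibroblast precursors of the heart and kidney.

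With phorone, transcripts of most of these factors were less abundant. Of the 10 genes, 9 could be tested, and 8 had at least 1 probe called lower: Prrx1, Prrx2, Twist2, Snai1, Snai2, Zeb1, Zeb2 and Osr1. The share of all genes with at least 1 probe called lower was not counted. On the brightest probe of each gene, where Zeb2 was not called, 7 of the 9 were called lower and 0 higher. Over all genes tested, 21% were called lower and 23.8% higher on that probe. Twist1 was not called, and Tcf21 was not well above background on any array. By probe, 15 of 16 cleared the background limit (on both phorone or both control arrays) and were tested; 12 were called lower and 0 higher (limma, Benjamini-Hochberg adjusted p under 0.05 over all gene probes tested), against 20.3% of all 24205 tested gene probes called lower and 25.5% called higher. At an unadjusted limma p under 0.05, 0 of the 15 were higher and 12 lower. The share of all gene probes at that limit was not counted, so this is not added support. The median log2 fold change of the 15 probes was -1.30, against 0.11 over all tested gene probes. On the brightest probe of each gene the median was -1.09 for the 9 members, against 0.08 over all genes tested. In RNA from whole cultures, fewer cells of a type and less RNA per cell cannot be told apart.

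The cells carried the fibroblast markers fixed for the comparison on every array, 8 of 8 well above background on all 4. The summed signal of these 8 was 668 and 701 on the phorone arrays, against 1509 and 1569 on the control arrays, in multiples of each array's 75th percentile. Of 6 epithelial markers 4 were above background on no array, and their summed signal was 0.167 and 0.180 with phorone and 0.171 and 0.170 in control cells. Endothelial (4 of 5 above background on no array, summed signal 0.0394 and 0.0632 with phorone, 0.104 and 0.111 in control cells) and skeletal muscle markers (4 of 5, with 0.148 and 0.166, against 0.455 and 0.449) were mostly dark. Of 5 adipocyte markers, 3 were above background on no array and 2 on all 4. Their summed signal was 7.51 and 8.15 with phorone and 11.4 and 9.55 in control cells. Macrophage markers summed to 0.506 and 0.696 with phorone and 0.237 and 0.286 in control cells, with Ptprc, Adgre1 and Itgam above background on no array. Chondrocyte markers summed to 1.04 and 1.25 with phorone and 7.94 and 9.04 in control cells, and osteoblast markers to 0.129 and 0.152, against 0.379 and 0.315. The part of these shifts in the results below was not tested. Each group also occupied its own slide row, and row and group cannot be told apart.

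**Figure D1:**
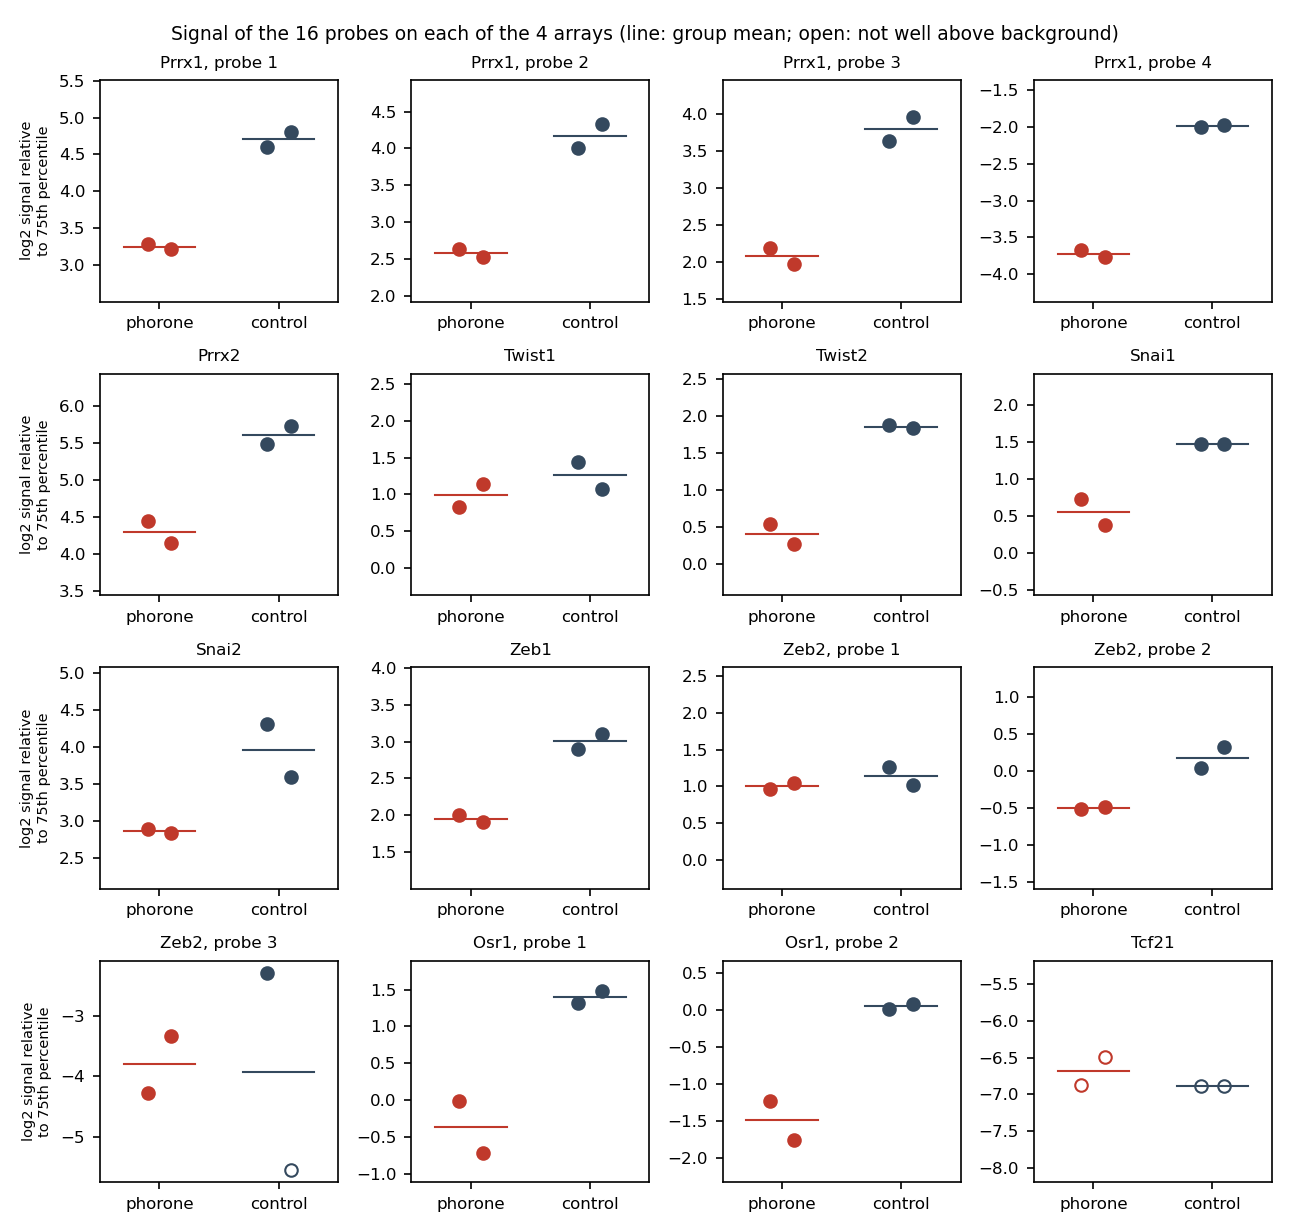
Signal of each of the 16 probes on the 4 arrays, as log2 signal relative to the array's 75th percentile (y axis, with its own range in each panel), phorone arrays on the left and control arrays on the right of each panel. Lines are group means and open points are not well above background. In the 12 called probes both phorone arrays lie below both control arrays, while the groups overlap for Twist1 and for Zeb2 probes 1 and 3. The share of all gene probes without overlap was not counted.

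Prrx1 and Prrx2 are paired-related homeodomain proteins of limb and facial mesenchyme. Prrx1 was read by 4 probes, numbered by their brightness in control cells. Probes 2 and 3 are listed in the array design for 3 RefSeq transcripts of Prrx1, and probes 1 and 4 for 2 of those. The sequences of probes 2 and 3 are given. Each reads through without a stop codon in 1 frame, as probe 4 also does, while no frame of probe 1 does. Probe 3 lies in the part that encodes the homeodomain, which is closely similar in Prrx2, and signal shared between the paralogs was not tested.
Prrx1 probe 2: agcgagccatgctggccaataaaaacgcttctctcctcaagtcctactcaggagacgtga
Prrx1 probe 3: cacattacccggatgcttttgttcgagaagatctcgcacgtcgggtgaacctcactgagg

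On probe 1 the log2 signal of Prrx1, relative to the 75th percentile of the array, was 3.29 and 3.21 on the phorone arrays, against 4.61 and 4.80 on the control arrays. Probe 3 read 2.19 and 1.97 with phorone and 3.64 and 3.96 in control cells. Both phorone arrays lay below both control arrays on these probes, by at least 1.32 log2 units. The log2 fold change was -1.45 (SE 0.14) on probe 1, -1.58 (SE 0.16) on probe 2, -1.72 (SE 0.17) on probe 3 and -1.73 (SE 0.12) on probe 4, or 2.74-fold to 3.32-fold lower, and limma called each probe lower (adjusted p 0.000959 to 0.00226). The 4 probes thus gave overlapping confidence intervals. The design names a different main transcript for probe 4 than for probe 1, so these may not read the same transcripts. With normexp background correction the change of probe 4, the dimmest, was -0.84, still called.

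Prrx2 read 4.45 and 4.16 on the phorone arrays, against 5.48 and 5.73 on the control arrays. The groups did not overlap, and Prrx2 fell by 1.30 on the log2 scale (SE 0.17, limma adjusted p = 0.00430), or 2.47-fold. Prrx1 and Prrx2 therefore both fell. The log2 ratio of Prrx2 to Prrx1 (probe 1), used only for its change between groups, differed by 0.15.

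Twist1 and Twist2 are paralogous basic helix-loop-helix factors. They restrain differentiation of bone, muscle and skin mesenchyme. Twist2 read 0.53 and 0.27 on the phorone arrays, against 1.88 and 1.83 on the control arrays. The groups lay 1.30 log2 units apart at their nearest, and Twist2 fell by 1.45 (SE 0.15, limma adjusted p = 0.00219), or 2.74-fold. Twist1 read 0.83 and 1.15 on the phorone arrays, against 1.44 and 1.08 on the control arrays. These groups overlapped, and Twist1 was not called, at -0.27 on the log2 scale with a 95% confidence interval of -0.76 to 0.22 (limma adjusted p = 0.296). The difference of phorone from control was -0.61 between the arrays numbered 1 and 0.068 between those numbered 2.

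Whether the 2 paralogs changed unequally was examined within arrays. The log2 ratio of the Twist2 to the Twist1 probe was -0.30 and -0.88 on the phorone arrays, against 0.43 and 0.75 on the control arrays, so the change of Twist2 was more negative by 1.18. The groups did not overlap, and the exact two-sided permutation test gave p = 0.333, the smallest that 2 against 2 arrays allow (0.444 after Benjamini-Hochberg adjustment over the 4 paralog pairs compared). For the other pairs the difference of changes was 0.15 for Prrx2 over Prrx1 (p = 0.333), -0.18 for Snai2 over Snai1 (p = 1) and 0.92 for Zeb2 probe 1 over Zeb1 (p = 0.333), by the same exact test. These sizes depended on the probe: Zeb2 probe 2 over Zeb1 gave 0.36, and Prrx2 gave 0.28, 0.42 and 0.43 over Prrx1 probes 2, 3 and 4, in a comparison chosen after seeing the data.

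Tcf21, a helix-loop-helix factor of heart and kidney stroma, could not be measured in these cells. Its single probe, whose sequence reads through in 1 frame, was below the detection limit on 4 of 4 arrays.
Tcf21 probe: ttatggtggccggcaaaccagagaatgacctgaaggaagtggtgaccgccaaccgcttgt
Its log2 signal was -6.88 and -6.49 on the phorone arrays, against -6.89 and -6.88 on the control arrays. Values of this kind lie at the floor of the scanner and have no order, so no fold change is given.

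Snai1 and Snai2 (Snail and Slug) are zinc-finger repressors that bind E-boxes of the form CACCTG. Snai1 read 0.73 and 0.38 on the phorone arrays, against 1.47 and 1.47 on the control arrays. Both phorone values were lower than both control values, and Snai1 fell by 0.92 (SE 0.16, limma adjusted p = 0.0100), or 1.89-fold. Snai2 read 2.88 and 2.84 on the phorone arrays, against 4.32 and 3.59 on the control arrays. Here the phorone arrays were nearly equal (SD 0.030), while the control arrays differed from each other (SD 0.51). Snai2 fell by 1.09 (SE 0.26, limma adjusted p = 0.0224), or 2.13-fold, and the change was -0.73 without control replicate 1 and -1.45 without control replicate 2, called in both. With no filter on dim probes, which adds probes to the adjustment, Snai2 was not called (adjusted p = 0.0751).

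Promoter sequences were compared for the E-box factors because Snai1 and Twist2 fell while Twist1 was not called. The 250 bases before the transcription start, from RefSeq on GRCm38.p6, were searched for the Snail-type E-box CACCTG (or its reverse complement CAGGTG), for any E-box CANNTG, which takes in CACCTG, and for TGACNNNGC on either strand, the core bound by the oxidant-response factor NRF2. An entry was found for 7 of the 10 genes (10 entries, 4 of them for Zeb2, some overlapping). Snai2, Zeb1 and Osr1 had no entry and were not searched. Capitals mark matches to CACCTG and to TGACNNNGC.
Snai1, chr2:167537945-167538194, plus strand: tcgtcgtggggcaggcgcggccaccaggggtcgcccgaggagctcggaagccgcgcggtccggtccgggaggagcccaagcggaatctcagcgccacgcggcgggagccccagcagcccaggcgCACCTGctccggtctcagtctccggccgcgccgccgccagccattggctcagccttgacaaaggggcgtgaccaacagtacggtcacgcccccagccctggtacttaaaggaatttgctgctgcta
Twist1, chr12:33957421-33957670, plus strand: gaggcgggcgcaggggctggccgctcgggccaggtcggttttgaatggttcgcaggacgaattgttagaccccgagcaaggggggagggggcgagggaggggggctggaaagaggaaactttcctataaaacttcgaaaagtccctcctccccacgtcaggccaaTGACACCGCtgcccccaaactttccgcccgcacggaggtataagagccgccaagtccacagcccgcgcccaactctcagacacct
Twist2, chr1:91801211-91801460, plus strand: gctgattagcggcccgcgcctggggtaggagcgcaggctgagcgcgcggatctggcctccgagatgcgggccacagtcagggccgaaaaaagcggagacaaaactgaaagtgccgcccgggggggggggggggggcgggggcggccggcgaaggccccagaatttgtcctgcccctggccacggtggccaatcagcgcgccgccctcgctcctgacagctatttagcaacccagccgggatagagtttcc

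Of the 10 entries, from 7 genes, 1 held CACCTG, that of Snai1, 126 bases before the start. It was also the 1 entry with any CANNTG. Over all 32851 promoter windows of this length, 17.2% held CACCTG or CAGGTG and 66.2% held CANNTG. TGACNNNGC was present in 1 of the 10 entries, that of Twist1, 85 bases before the start, against 10.2% of all windows. These matches are letters in a window and are not evidence of binding.

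Zeb1 and Zeb2 are large repressors with zinc-finger clusters at both ends that bind paired E-boxes. Zeb1 read 2.00 and 1.91 on the phorone arrays, against 2.90 and 3.10 on the control arrays. The groups did not overlap, and Zeb1 fell by 1.05 (SE 0.14, limma adjusted p = 0.00447), or 2.07-fold.

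Zeb2 was read by 3 probes, which disagreed. Probe 1 read 0.96 and 1.05 with phorone and 1.27 and 1.02 in control cells, so its groups overlapped, and it was not called, at -0.13 with a 95% confidence interval of -0.51 to 0.24 (limma adjusted p = 0.484). Probe 2 read -0.52 and -0.49 with phorone and 0.04 and 0.33 in control cells, without overlap, and fell by 0.68 (SE 0.15, limma adjusted p = 0.0185). The call of probe 2 was lost without phorone replicate 1 (adjusted p = 0.0698), without phorone replicate 2 (0.0681) and with no filter on dim probes (0.0615). Probe 3 read -4.27 and -3.32 with phorone and -2.29 and -5.56 in control cells, where control replicate 2 was not well above background. Probe 3 entered the test through the phorone arrays alone. Its fitted change was 0.13 (SE 1.07, limma adjusted p = 0.932), and -1.51 without control replicate 2. Without control replicate 1 it was 1.76, against the 1 control reading left, which was not well above background. No reading frame of probe 3 is free of stop codons. A direction for Zeb2 as a gene therefore rests on the choice of probe.

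Osr1, an odd-skipped zinc-finger factor of intermediate and limb mesenchyme, was read by 2 probes, shown because both read through in at least 1 frame. Probe 1 lies in the part that encodes a zinc finger, which is closely similar in its paralog Osr2, and signal shared between them was not tested.
Osr1 probe 1: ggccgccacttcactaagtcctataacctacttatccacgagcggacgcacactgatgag
Osr1 probe 2: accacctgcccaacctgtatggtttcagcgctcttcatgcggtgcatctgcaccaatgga
Probe 1 read 0.00 and -0.71 on the phorone arrays, against 1.32 and 1.48 on the control arrays. Probe 2 read -1.23 and -1.75 on the phorone arrays, against 0.01 and 0.09 on the control arrays. On both probes the phorone arrays lay at least 1.24 log2 units below the control arrays and differed more from each other than the control arrays did. Probe 1 fell by 1.76 (SE 0.26, limma adjusted p = 0.00576), or 3.38-fold, and probe 2 fell by 1.54 (SE 0.20, limma adjusted p = 0.00450), or 2.91-fold.

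**Figure D2:**
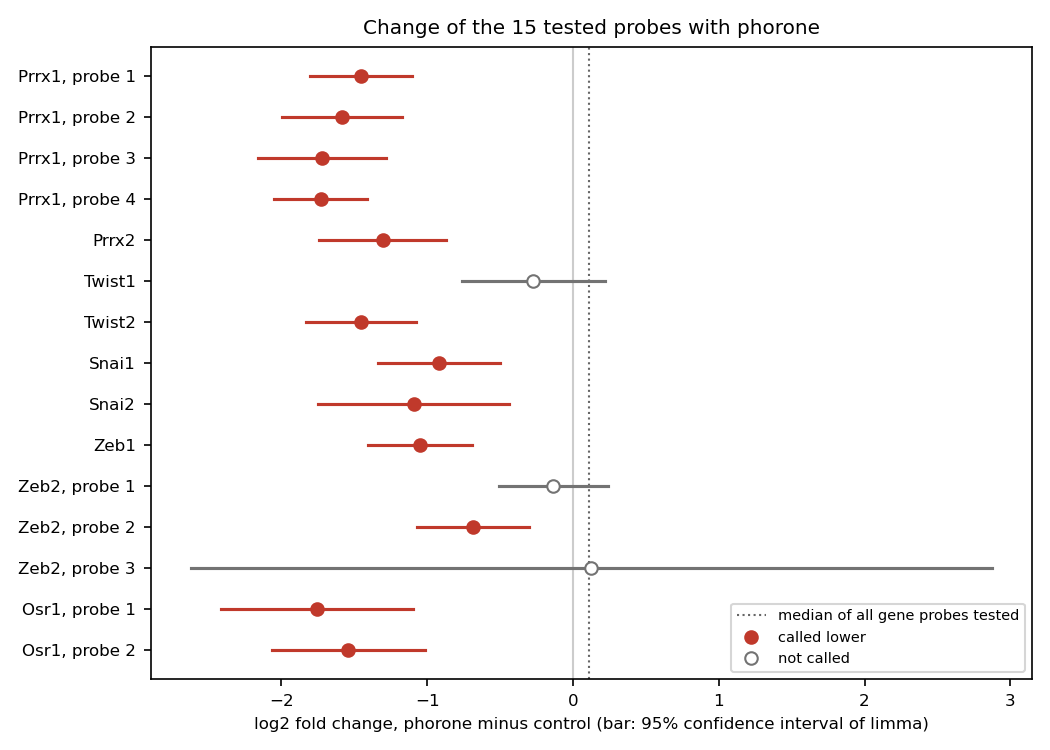
log2 fold change, phorone minus control (x axis), of the 15 tested probes, with the 95% confidence interval of limma as a bar; filled points were called lower and open points were not called, and the dotted line is the median of all tested gene probes (0.11). The 12 called probes lie between -1.76 and -0.68, and the interval of Zeb2 probe 3 spans -2.62 to 2.87.

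Among the members, Osr1 and Prrx1 had the most negative changes and Zeb2 probe 2 and Snai1 the least negative ones that were called. Of all tested gene probes, 5.49% had a more negative change than Osr1 probe 1 and 5.63% than Prrx1 probe 4, against 13.1% for Snai1 and 17.1% for Zeb2 probe 2. The 95% confidence intervals of called probes next to each other in this order overlapped. Arrays of the same replicate number also shared a column of the slide. Within these pairs, the 12 called probes differed by -2.19 to -0.56. The negative sign in both pairs follows from groups that do not overlap and is not added support.

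How strongly the fall is called depended on the scaling. On the spike-in control probes, whose mean log2 signal was 11.9 and 11.7 on the phorone arrays and 12.2 and 13.0 on the control arrays, the median of all tested gene probes shifted to 0.54, against 0.11 with the 75th percentile. This scaling moves every probe of an array by the same amount, so positions relative to that median (-1.56 for Prrx1 probe 1, -1.03 for Snai1 and -0.38 for Twist1) are the same by construction. Under spike-in scaling 4 member probes were called lower, Prrx1 probes 2 (-1.15), 3 (-1.29) and 4 (-1.30) and Osr1 probe 1 (-1.32), against 6.66% of all tested gene probes. The other 8 called members kept a negative sign without a call, from -1.11 for Osr1 probe 2 (adjusted p = 0.0560) to -0.25 for Zeb2 probe 2 (0.695), and Twist1 and Zeb2 probe 1 turned to 0.16 and 0.30, not called.

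**Figure D3:**
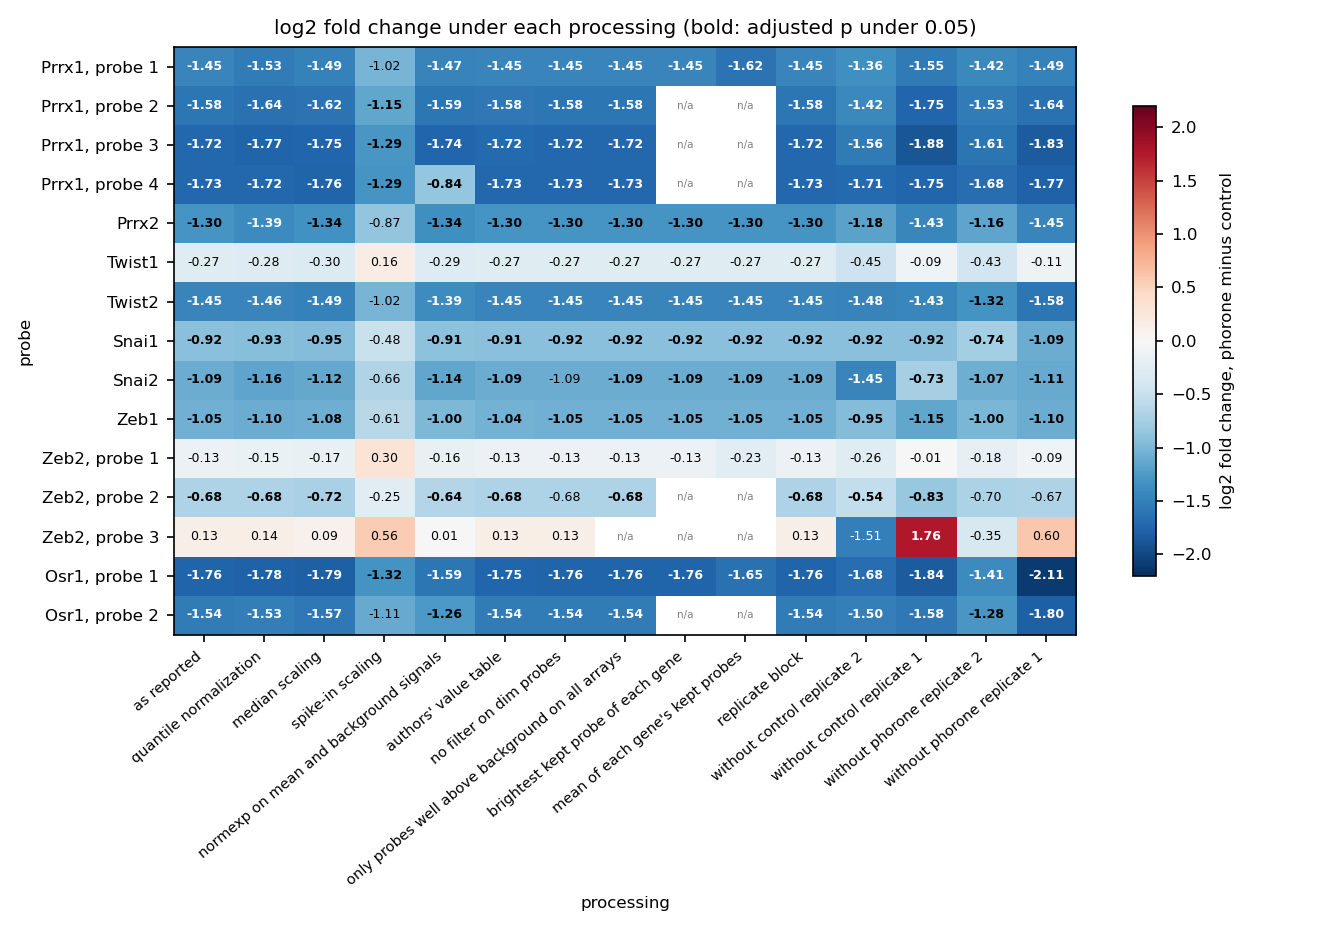
log2 fold change, phorone minus control (colour and number), of the 15 tested probes (rows) as reported and under 14 other ways of processing (columns); bold numbers had an adjusted p under 0.05, n/a marks a probe not in that fit, and the mean over a gene's probes stands in the row of its probe 1. The 12 called probes are negative in every column that holds them, and spike-in scaling leaves 4 of them in bold.

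The genes around these factors were described from 6 lists, each gene read on its brightest tested probe. Over all 17031 genes tested, 21% were called lower and 23.8% higher, and the median log2 fold change was 0.08. Among 17 close relatives of the members by family, 7 were tested, 4 were called lower and 0 higher, with a median of -0.76. Osr2, the paralog of Osr1, read -3.54 and -3.91 on the phorone arrays, against -1.59 and -1.25 on the control arrays, and fell by 2.31 (SE 0.20, limma adjusted p = 0.00143). With normexp its change was -1.31, still called. The tendon factor Scx (-1.11) was also called lower (limma adjusted p = 0.00729). Snai3, the remaining Snail family gene, was not well above background on any array. Under spike-in scaling 2 of the relatives were called lower.

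The Twist proteins act as dimers with E proteins, and the Id proteins, which lack a DNA-binding region, sequester those partners. Of 9 such genes 7 were tested, 4 were called lower and 0 higher (median -0.51). The E-protein gene Tcf4 read 1.49 and 1.40 on the phorone arrays, against 2.72 and 2.91 on the control arrays, and fell by 1.37 (SE 0.14, limma adjusted p = 0.00218); its other probe stood at -0.19, not called. The inhibitor Id3 read 3.98 and 3.90 with phorone and 4.76 and 5.52 in control cells, and fell by 1.20 (adjusted p = 0.0189). Id1 (-0.51) and the E-protein gene Tcf3 (-0.40) were also called lower. Id1 was not called without control replicate 2 (limma adjusted p = 0.0843), phorone replicate 2 (0.123) or phorone replicate 1 (0.166). Tcf3 was not called with any of the 4 arrays left out (adjusted p 0.0791 to 0.228), and its other probe stood at 0.078, not called. Tcf12 (-0.44) and Id2 (-0.30) were not called (limma adjusted p = 0.0924 and 0.138). Under spike-in scaling 0 of this list were called lower and Tcf3 stood at 0.035 and Id2 at 0.13; without phorone replicate 1 or without phorone replicate 2 there were 2, and with no filter on dim probes 1.

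Of 44 other transcription factors of mesenchyme, 34 were tested, 21 were called lower and 3 higher, with a median of -0.70 (9 lower under spike-in scaling). The repressor Hic1, a marker of quiescent mesenchymal progenitors, read -2.74 and -2.95 on the phorone arrays, against -0.14 and -0.02 on the control arrays, and fell by 2.76 (SE 0.14, limma adjusted p = 0.000493). The cartilage factor Sox9 (-2.38) and the bone factor Dlx5 (-2.37) fell. With normexp Hic1, Sox9 and Dlx5 stood at -2.05, -1.93 and -1.44, all still called. Foxf1, a forkhead factor of gut and lung mesenchyme, was not well above background with phorone and was at least 1.77-fold lower (limma adjusted p = 0.0400). It was not called without control replicate 2 (adjusted p = 0.151), with no filter on dim probes (0.118) or with normexp, which gave -0.40 (0.0705), a smaller change than the bound. Foxf1, like Fap, Lum, Dsg2 and Grhl2 described next, entered the test through its brighter group alone, so its adjusted p rests on readings at the floor in the other group. The 3 that rose were Tbx18 by 1.04, Msx2 by 0.90 and Foxf2 by 0.76 (limma adjusted p = 0.0471). Foxf2 was not called without control replicate 2, where it stood at 0.45, or without phorone replicate 1 (0.79) or phorone replicate 2 (0.72).

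Genes that mesenchymal cells use for matrix, adhesion and contraction numbered 28, all tested, of which 20 were called lower and 1 higher, with a median of -1.42, or -1.33 with genes below background at their bound (12 lower under spike-in scaling). Fap, the fibroblast activation protease, was not well above background with phorone and at least 17.6-fold lower, and the proteoglycan Lum was at least 2.04-fold lower. With normexp and its offset of 50, the changes were -2.69 for Fap and -0.77 for Lum, both called but smaller than these bounds. Dcn (decorin, -4.52) and the collagen Col3a1 (-3.38) fell. The classical readouts of a mesenchymal state, Vim (-0.36), Fn1 (-0.08) and Cdh2 (N-cadherin, -0.49), were not called (limma adjusted p = 0.0789, 0.703 and 0.0818); Vim was called lower under quantile normalisation (adjusted p = 0.0373) and with normexp (0.0300), where Cdh2 was also called (0.0315), and Vim and Fn1 turned to 0.073 and 0.35 under spike-in scaling. Cdh11 (OB-cadherin) was the 1 gene of this list called higher, by 1.27 on its brightest probe, but its other probes were called lower, down to -5.92, so its direction depends on the probe.

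Cdh1, the epithelial gene that Snail and Zeb factors are known to repress, was not well above background on any array of either group. In the list of 34 epithelial genes 13 were tested, 5 were called higher and 2 lower, with a median of 0.08, and 21 were too dim to test. Dsg2, a desmosomal cadherin, and Grhl2, a transcription factor of epithelia, stayed below the background limit in control cells and were at least 1.96-fold and 2.04-fold higher with phorone (limma adjusted p = 0.00293 and 0.00532). Both entered the test through the phorone arrays alone, so these p-values rest on control readings at the floor. With normexp the changes were 1.29 for Dsg2 and 0.92 for Grhl2, both called, the second of them smaller than its bound. Grhl1, a relative of Grhl2, rose by 1.84 and the desmosome protein Pkp3 by 1.26. With normexp Grhl1 stood at 1.01 and Pkp3 at 0.97, both called. Krt7, a keratin (-1.61), and the laminin chain Lama5 (-0.74) fell, but Lama5 was not called without phorone replicate 1. With normexp Krt7 stood at -0.95, still called.

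Of 19 co-repressors and factors that set the stability of Snail and Zeb proteins, 19 were tested, 1 was called lower and 2 higher, with a median of 0.14. Ezh2, the methyltransferase of Polycomb complex 2, read 2.05 and 2.13 on the phorone arrays, against 1.21 and 0.65 on the control arrays, and rose by 1.16 (SE 0.22, limma adjusted p = 0.0114). Fbxo45, a ubiquitin-ligase subunit, rose by 0.69 (adjusted p = 0.0228), but was not called without phorone replicate 1 (0.0609) or phorone replicate 2 (0.0862). Ctbp1, a co-repressor recruited by Zeb and Snail proteins, fell by 0.45 (adjusted p = 0.0329), and was not called with any of the 4 arrays left out (adjusted p 0.0611 to 0.187).

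**Figure D4:**
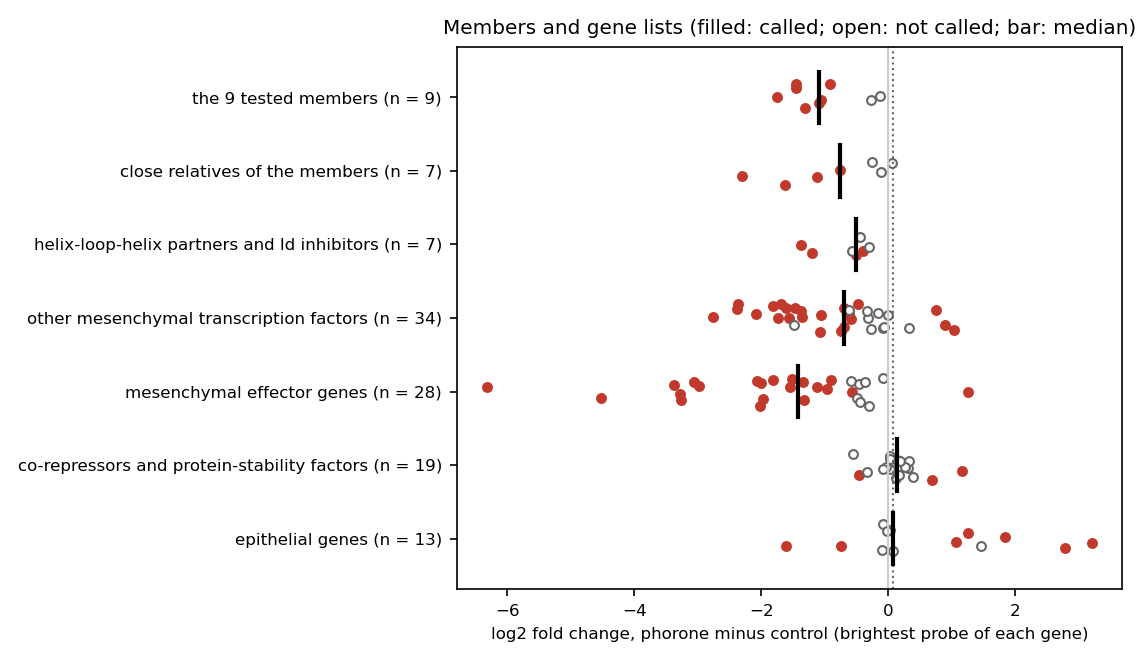
log2 fold change, phorone minus control (x axis), of each tested gene on its brightest probe, for the 9 tested members and 6 gene lists (rows, with the number of genes); filled points were called, open points were not, black bars are medians, and the dotted line is the median of all tested genes (0.08). Genes below background in a group are drawn at their fitted value, which is not a bound. The medians run from -1.42 for mesenchymal effector genes to 0.14 for co-repressors and protein-stability factors.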

How the data were processed

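Total RNA was labelled with Cy3 and hybridised to 4 one-colour Agilent arrays (2 phorone, 2 control), on 1 slide read in 1 scan. The deposited intensity columns are, per the file headers, Feature Extraction 10.7.3.1 processed signals: background-subtracted and detrended, with surrogate values for dim spots and no scaling across arrays. A value table by the authors holds log2 numbers that sit 1 offset per array away from log2 processed signal (SD at most 0.0223), near the 75th percentile, and its direction is that of the signal; its column medians were -4.37 and -4.30 for phorone and -4.39 and -4.35 for control. Well above background were 51.1% to 52.7% of spots, with 0 saturated; precision is limited by having 4 arrays.

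Processed signals were put on the log2 scale, centred on the 75th percentile of an array's non-control probes, and averaged over spots without outlier flags (71 gene probes lost). A probe was kept if both arrays of either group passed the background flag. The 24205 kept probes were fitted with limma 3.58.1 in R 4.3.3 (two-sided, 2 residual and 3.08 prior degrees of freedom), with Benjamini-Hochberg adjustment over all of them. RefSeq accessions (GRCm38.p6) matched 69.3% of gene probes and updated their symbols; the files list the member probes as unmapped, so no probe positions are given. The fit was tested on simulated data. A gene below background in 1 group has a bound against the lowest signal well above background. Named genes were the members, up to 4 called genes each way per list with the largest change, and a fixed set (Cdh1, Cdh2, Vim, Fn1, Tcf3, Tcf4, Tcf12, Id1, Id2, Id3, Snai3, Osr2). Members and lists were chosen with earlier results of these data known. The 14 alternatives changed scaling, background correction, filter, probe choice, the replicate block or the arrays included. Some genes that this rule names are not reported here.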

Additional observations from a re-analysis of the deposited data

How the results depend on the processing

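The 12 member probes called lower kept a negative change under all 14 alternatives that held them (158 values) and their call in 146. Many of these values could not turn sign. A changed filter, the brightest probe and the replicate block return the same change. Leaving out 1 array cannot reverse groups that do not overlap. Such a count over all called gene probes was not made. Called lower numbered 4 of 15 under spike-in scaling and 7 of 9 with 1 probe, or the mean of the kept probes, per gene, where fewer probes enter. Of all 17031 genes, 3623 were called lower with the brightest probe and 3530 with the mean. Without control replicate 1, Zeb2 probe 3 stood at 1.76, against the 1 control reading left, which was not well above background. Of all gene probes, 6168 were higher and 4917 lower, against 4452 and 1611 under spike-in scaling, 3823 higher with no filter, and 3501 to 5812 higher and 3599 to 4750 lower with 1 array left out. Genes of any list called lower numbered 52, against 24 under spike-in scaling and 42 to 52 with 1 array left out. Changes that turned sign were, under spike-in scaling, Twist1 (0.16), Zeb2 probe 1 (0.30), Fn1 (0.35), Id2 (0.13), Tcf3 (0.035) and Vim (0.073); averaging all probes per gene, Cdh11 (-3.11) and Fn1 (0.080); and with 1 array left out, Fn1 (-0.22 to 0.058) and Zeb2 probe 3 (-1.51 and -0.35). The cause was not tested, except that spike-in scaling shifts every probe by the same amount per array.

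The titles number the replicates alike in both groups, and deviations of same-numbered arrays correlated with r = -0.041 across gene probes. With 2 arrays a group, this cannot settle whether the numbers pair the arrays. With the replicate number as a block, 12 member probes were called lower and 0 higher, and 5252 gene probes higher and 4501 lower; among the helix-loop-helix partners 2 were called lower in place of 4. The number of arrays and the dimness of Zeb2 probe 3 and Tcf21 limit what can be seen.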
